A study of Rattus norvegicus with 12 samples.

Results

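Hmox1, Fth1, Ftl1, Tfrc, Slc40a1, Slc11a2, Cp, Hpx, Cd163 and Steap3 encode proteins that break down heme, clear hemoglobin and heme from the blood and tissue, or import, store, oxidise and export iron. These 10 genes were looked up by symbol among the 17268 genes of a count table from rat cerebral cortex, and 9 of them had a row. Slc40a1, the gene of the iron exporter ferroportin, had no row and was not analysed here. The set bears on bleeding after thrombolysis, a main hazard when a clot is dissolved late.

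Cortex RNA was sequenced from 12 adult male Sprague Dawley rats, 3 in each of 4 groups, with 1 library per rat. Sham rats underwent the carotid surgery but received no clot. Model rats received a clot, prepared from donor blood and rinsed of red blood cells, in the middle cerebral artery and had no further treatment. Rats of the rt-PA group received the clot and, 6 h later, recombinant tissue plasminogen activator (rt-PA) through the tail vein. The rt-PA+Acu rats were needled at the Shuigou and Neiguan points 2 h after the clot and were given rt-PA as well, also 6 h after the clot. Neiguan was needled on the left side per the labels and on both sides per the study's methods. The 9 rats outside Sham shared the clot, and no group was needled without rt-PA. The time at which cortex was taken for sequencing is not given in the sources used here.

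Hemoglobin that leaves red blood cells is bound by haptoglobin and taken up by macrophages through CD163, while free heme is bound by hemopexin and taken up through LRP1. Inside the cell, heme oxygenase opens the heme ring and sets free biliverdin, carbon monoxide and iron, and the iron is stored in ferritin, a shell of heavy and light chains, or leaves through ferroportin with the help of the oxidase ceruloplasmin. Iron carried by transferrin enters through the transferrin receptor, is reduced by STEAP3 and crosses the endosomal membrane through the transporter encoded by Slc11a2, and the inducible heme oxygenase also responds to stresses other than heme.

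Levels are given as CPM, a gene's counts scaled to a common library total with edgeR's TMM factors. Total counts ran from 11678450 to 13616935 per library, and 3 counts stood for 0.208 to 0.262 CPM. A gene passed the test where edgeR's quasi-likelihood test on the 6 libraries of a comparison gave a Benjamini-Hochberg adjusted p under 0.05 over all genes tested, and a differentially expressed gene (DEG) also had an absolute log2 fold change over 1. The tissue label was checked against marker lists. All 6 neuron markers were in the table and summed to between 3735 and 7736 CPM in each library, with Snap25 as the most abundant gene on average over the 12 libraries, though Camk2a stood above it in Sham by mean (2668 and 2246 CPM). The most abundant gene of a marker list is taken in the same way, over all 12 libraries, throughout. Of the choroid plexus markers, Otx2 had 0 counts in every library and Ttr had at most 3, while Kl reached 16.3 CPM in a Model library and Kcne2 15.7 CPM in rt-PA+Acu replicate 3, and the 7 markers summed to 3.49 to 5.07 CPM in Sham and 11.8 to 20.2 CPM in Model.

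Libraries of the same group differed from one another. At 11 of the 13298 genes that passed a filter on low counts over all 12 libraries, Model replicate 3 lay inside the Sham range while the other 8 clot libraries lay more than 1.5-fold outside it on the same side. The same count was 0 for the other 5 Model and rt-PA libraries, and 43, 19 and 2 for rt-PA+Acu replicates 1, 2 and 3. Rpl39, a ribosomal protein gene chosen after its values were seen, stood at 11.7 CPM in Model replicate 3, just above the 9.17 to 11.5 CPM of Sham, and at 42.6 to 71.1 CPM in the other 8 libraries. Between libraries of a group, chi-square per gene (1 for sampling noise alone) was highest for rt-PA+Acu replicates 1 and 3 (53.3) and 2 and 3 (37.4), Model replicates 1 and 3 (37.1) and rt-PA replicates 1 and 2 (36). The libraries are from separate rats, so these values rank the pairs only, and their distance from 1 carries no test. The sources used here give no batch. The rule of this count sets where the other 8 libraries lie, so it describes single libraries only, and what sets Model replicate 3 apart was not tested. Within rt-PA+Acu, replicate 3 lay nearest to the rt-PA libraries at several of the 9 genes. For some of the genes below, values are given with and without either library.

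Hmox1 and Ftl1 rose after the clot, and they, Cd163 and Cp had their highest group mean in rt-PA and fell in rt-PA+Acu compared with it, while Slc11a2, Fth1 and Steap3 passed in none of the 5 comparisons and Hpx in neither of the 2 in which it was tested. In Model vs Sham, which asks what the clot alone changed, 3 of the 8 members tested passed, all of them higher, and 2 were DEGs. Of all 12884 genes tested, 54% passed, 27.3% higher and 26.6% lower, and 21.5% were DEGs, so the members' share of 37.5% lay below that of all genes. The members' median log2 fold change was 0.64, beside 0.01 over all genes tested. In rt-PA vs Model, which asks what late thrombolysis added, 0 of 9 members passed edgeR's test, as did 0% of all 12941 genes, and DEGs were 0% as well. At an unadjusted p under 0.05, 3 of the 9 members passed, beside 9.92% of all genes, and with DESeq2 and its adjusted p 1 member did, Cd163, beside 1.14% of the 14374 genes that DESeq2 tested. The median there was 0.52, beside 0.00 over all genes.

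The comparison of rt-PA+Acu against rt-PA, 2 groups that differ by the needling, is called the acupuncture comparison here. In it, 5 of 9 members passed and all 5 were lower in rt-PA+Acu, 3 of them as DEGs. With 1 library left out the count ran from 3 (without rt-PA+Acu replicate 1 or 2 or rt-PA replicate 1 or 3) to 5, and the DEGs from 2 (without the same libraries) to 5 (without rt-PA+Acu replicate 3). The share of 55.6% in the main fit compares with 34.8% of all 12999 genes tested, of which 17% were higher, 17.7% lower and 15.3% DEGs. The members' median log2 fold change was -0.93, beside 0.00 over all genes. In rt-PA vs Sham, 4 of 8 members passed, all higher and all DEGs, beside 54.7% of 13023 genes passing (27.4% higher, 27.3% lower) and 22.6% as DEGs. The members' share passing, 50%, was close to that of all genes, while their shares passing as higher and as DEGs lay above those of all genes. In rt-PA+Acu vs Sham, 1 of 8 members passed, higher and a DEG, beside 5.1% of 12775 genes (1.7% higher, 3.4% lower) and 2.06% as DEGs. The medians of the last 2 comparisons were 1.25 and 0.20, beside 0.00 and 0.02 over all genes. These comparisons share libraries with one another, so their values are set side by side and not counted as separate support. An effect past the threshold in one comparison and not in another is not shown to differ between them.

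**Figure D1:**
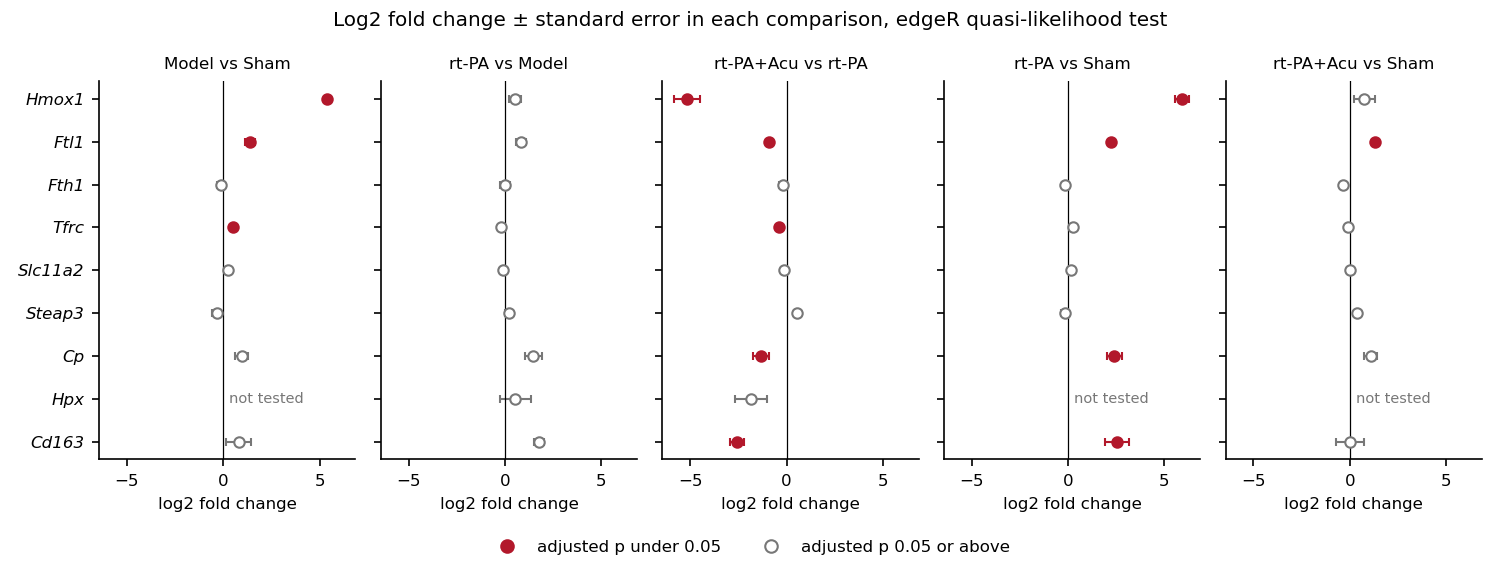
Log2 fold change of the 9 genes in the 5 comparisons, with bars for the standard error of edgeR's quasi-likelihood fit and filled points for an adjusted p under 0.05. Hmox1 has the longest distance from 0 in Model vs Sham (5.41) and in the acupuncture comparison (-5.16), and no point is filled in rt-PA vs Model.

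Of the 10 genes, 7 had a promoter entry in the RefSeq table used here, with 8 entries in all, and Hmox1, Fth1 and Ftl1 had none. The 250 bases before the start are printed for Tfrc, Cp and Cd163, the members with an entry that fell between rt-PA and rt-PA+Acu. They were searched on both strands for ACGTG and GCGTG, core letters bound by hypoxia-inducible factors, and for TGACNNNGC, the core of the antioxidant response element bound by NRF2 and BACH1, and no match overlapped another. The windows are from build GRCr8, written 5′ to 3′ on the gene's strand, at chr11:81690319-81690568 (minus strand) for Tfrc, chr2:104368420-104368669 (plus strand) for Cp and chr4:158770524-158770773 (plus strand) for Cd163, and capitals mark matches.
Tfrc: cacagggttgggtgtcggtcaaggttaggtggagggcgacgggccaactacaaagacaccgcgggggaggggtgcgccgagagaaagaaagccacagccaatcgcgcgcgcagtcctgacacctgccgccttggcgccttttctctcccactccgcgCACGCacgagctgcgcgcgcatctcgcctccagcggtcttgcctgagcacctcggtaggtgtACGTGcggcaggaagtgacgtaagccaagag
Cp: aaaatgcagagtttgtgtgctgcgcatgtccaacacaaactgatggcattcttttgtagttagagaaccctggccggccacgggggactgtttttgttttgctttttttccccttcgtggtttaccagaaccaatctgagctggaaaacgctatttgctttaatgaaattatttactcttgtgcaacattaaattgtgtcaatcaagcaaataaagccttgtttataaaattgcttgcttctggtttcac
Cd163: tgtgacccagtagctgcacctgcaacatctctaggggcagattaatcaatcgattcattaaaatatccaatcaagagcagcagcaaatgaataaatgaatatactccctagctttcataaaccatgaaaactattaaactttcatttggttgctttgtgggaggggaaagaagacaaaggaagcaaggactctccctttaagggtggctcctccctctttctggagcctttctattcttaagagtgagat
Tfrc held ACGTG from 31 to 27 bases before the start and GCGTG on the other strand from 93 to 89 bases before it. Neither the Cp nor the Cd163 window held any of the 3 motifs. Among the windows not printed, Hpx held TGACNNNGC on the other strand from 99 to 91 bases before the start, and 1 of the 2 Slc11a2 entries held GCGTG on the other strand from 165 to 161 bases before it. Among 33469 promoter entries of the same length, 16.6% held ACGTG, 25.9% GCGTG and 10.1% TGACNNNGC. A match describes the letters only, and its absence says only that these letters are not in this window.

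Hmox1 encodes the inducible heme oxygenase, the enzyme that opens the heme ring. It stood at 7.89, 7.11 and 6.90 CPM in the Sham libraries, 253, 331 and 344 CPM in Model, 613, 248 and 470 CPM in rt-PA, and 5.23, 6.46 and 25.1 CPM in rt-PA+Acu. Every Model and rt-PA library lay far above every Sham and rt-PA+Acu library, Model and rt-PA overlapped, and rt-PA+Acu replicates 1 and 2 lay below the Sham range while replicate 3 lay above it. By group mean the order was rt-PA (444 ± 184 CPM, SD, n = 3), Model (309 ± 49.0), rt-PA+Acu (12.3 ± 11.1) and Sham (7.30 ± 0.525), and neither rt-PA and Model nor rt-PA+Acu and Sham differed beyond their spread. From Sham to Model it rose by 5.41 on the log2 scale (standard error 0.15, edgeR adjusted p = 3.29e-06), a 42.5-fold difference, and by 5.33 without Model replicate 3. Between Model and rt-PA the difference was 0.52 (standard error 0.30, edgeR adjusted p = 0.619). With acupuncture before rt-PA, Hmox1 fell by 5.16 on the log2 scale (standard error 0.68, edgeR adjusted p = 0.00245), and by 6.24 without rt-PA+Acu replicate 3. Against Sham, rt-PA+Acu differed by 0.76 (standard error 0.55, edgeR adjusted p = 0.442), and the sign turned, to -0.33, without that replicate. In bulk tissue, fewer cells of a type and less RNA per cell cannot be told apart, here and for every gene that follows.

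The genes whose log2 CPM over the 12 libraries was most like that of Hmox1, among 13298, were Pate4 (Pearson r = 0.992), Arf4 (0.990) and Mab21l3 (0.989). Arf4, the gene of a small GTPase of the secretory pathway, averaged 97.8 ± 0.744 CPM (SD of 3 libraries) for Sham, 158 ± 3.84 for Model, 169 ± 11.5 for rt-PA and 106 ± 13.5 for rt-PA+Acu. Pate4 and Mab21l3 were rare, with at most 3.40 and 1.60 CPM in any library, and Mab21l3 had 0 CPM in all 3 Sham libraries. The 12 libraries form groups on either side of a wide gap, so these correlations describe that gap and carry no test.

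**Figure D2:**
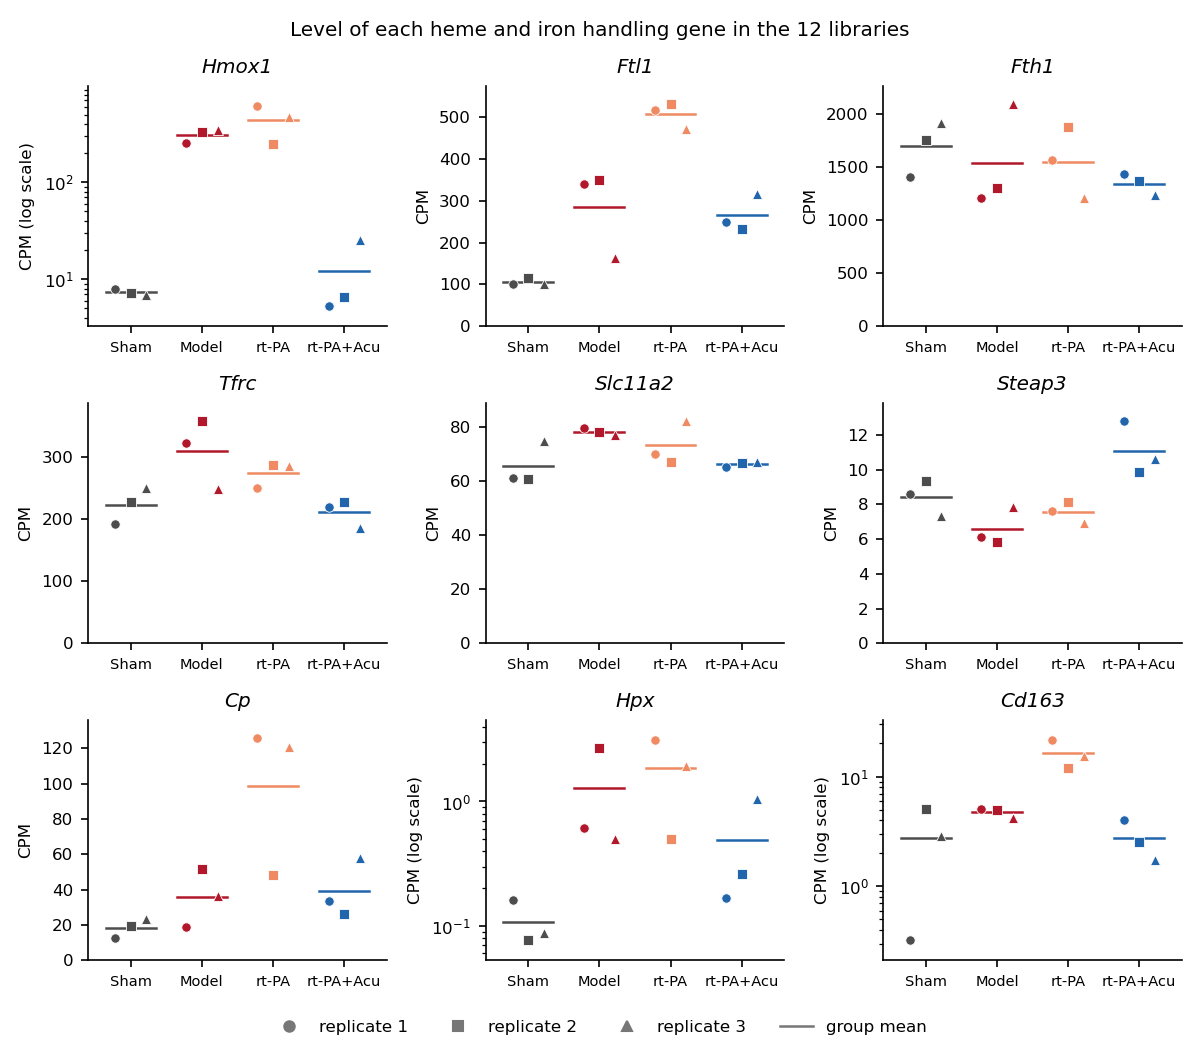
CPM of the 9 genes in each of the 12 libraries, by group, with a symbol for each replicate and a bar for the group mean. Hmox1, Hpx and Cd163 have log axes, the rest start at 0, and Hmox1 in rt-PA+Acu replicate 3 (25.1 CPM) lies above the other 2 libraries of that group (5.23 and 6.46 CPM).

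The scavenger receptor for hemoglobin, CD163, is a surface protein of perivascular and other tissue macrophages. Its gene Cd163 stood at 0.322, 5.05 and 2.88 CPM in Sham (4, 66 and 33 counts), 5.11, 4.99 and 4.21 CPM in Model, 21.5, 11.9 and 15.3 CPM in rt-PA, and 4.05, 2.53 and 1.72 CPM in rt-PA+Acu. All 3 rt-PA libraries lay above the 9 others, and Sham replicate 1 was the lowest of all. Sham overlapped both Model and rt-PA+Acu, while every Model library lay above every rt-PA+Acu library. Between Sham and Model, Cd163 differed by 0.80 on the log2 scale (standard error 0.66, edgeR adjusted p = 0.331), with 0.26 to 1.59 over the alternatives and adjusted p from 0.109 to 0.55. The rt-PA libraries exceeded Model by 1.77 on the log2 scale (standard error 0.26), at an unadjusted p of 0.000146, an edgeR adjusted p of 0.127 and, over the alternatives, adjusted p from 1.96e-06 (with DESeq2) to 0.478. Compared with rt-PA, Cd163 fell by 2.56 on the log2 scale in rt-PA+Acu (standard error 0.36, edgeR adjusted p = 0.00298), a 5.89-fold difference. Compared with Sham, it rose by 2.53 in rt-PA (standard error 0.63, edgeR adjusted p = 0.0103), and by 3.34 without Sham replicate 2. The rt-PA+Acu and Sham libraries did not differ beyond their spread, with a log2 fold change of 0.00 (standard error 0.72).

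The genes most like Cd163 over the 12 libraries were Rp2 (Pearson r = 0.937), Mrc1 (0.930) and Lpp (0.913). Mrc1, the mannose receptor gene of perivascular macrophages, averaged 5.97 ± 3.89 CPM (SD of 3 libraries) for Sham, 7.88 ± 2.50 for Model, 19.9 ± 3.84 for rt-PA and 5.55 ± 0.892 for rt-PA+Acu. Since these genes were picked for their correlation with Cd163, their highest group mean in rt-PA, as for Cd163, follows from the choice and carries no test.

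Hemopexin, the plasma protein that binds free heme, is encoded by Hpx, which was close to the limit of detection. It had 2, 1 and 1 counts in Sham, 8, 32 and 6 in Model, 45, 7 and 26 in rt-PA, and 2, 3 and 14 in rt-PA+Acu. Each Model and rt-PA library held more counts than any Sham library, with a wide spread inside each group, and only rt-PA+Acu replicate 3 of its group held more than 3. Hpx missed the filter on low counts in the comparisons with Sham, where no fold change is given. Where an alternative kept it, its adjusted p was 0.00633 (DESeq2), 0.0139 (no filter) and 0.0197 (a common fit) in Model vs Sham, and 0.000425 to 0.0251 in the 7 alternatives that kept it in rt-PA vs Sham, so it passed in each of these, with higher levels than in Sham. In rt-PA+Acu vs Sham it did not pass in the 2 that kept it (adjusted p = 0.267 without the filter and 0.31 in a common fit). In the acupuncture comparison its log2 fold change was -1.85 (standard error 0.83, edgeR adjusted p = 0.12), and without rt-PA+Acu replicate 3 it was -3.04 and passed (adjusted p = 0.0414, with 0.0414 to 0.358 over the alternatives). In rt-PA vs Model it was 0.55 (standard error 0.80, edgeR adjusted p = 0.868), and without rt-PA replicate 1 it was -0.06.

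Haptoglobin and the heme-hemopexin receptor stand beside these scavengers. Hp, the haptoglobin gene, stood between 2.68 and 7.76 CPM in all 12 libraries, with overlapping groups, and did not pass in any of the 5 comparisons. Lrp1 stood at 893, 856 and 884 CPM in Sham, 645, 605 and 672 CPM in Model, 770, 646 and 815 CPM in rt-PA, and 958, 1010 and 989 CPM in rt-PA+Acu. It was highest in rt-PA+Acu and lowest by mean in Model. Lrp1 fell by 0.45 on the log2 scale in Model vs Sham (standard error 0.08, edgeR adjusted p = 0.00177) and rose by 0.41 in the acupuncture comparison (standard error 0.13, edgeR adjusted p = 0.0418). The second call was lost in 7 of 13 alternatives, in 5 of which 1 library was left out (rt-PA+Acu replicate 1 or 2, or any rt-PA replicate), with adjusted p up to 0.128.

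Markers of macrophages moved with some of these genes. Of 7 markers of perivascular and border macrophages, 5 were in the table, and their summed level was 11.2, 24.2 and 21.5 CPM in Sham, 20.6, 16.3 and 26.9 in Model, 59.7, 36.0 and 43.2 in rt-PA, and 18.0, 12.5 and 16.7 in rt-PA+Acu, with Mrc1 as the most abundant. Of these 5, 4 fell in the acupuncture comparison, with a median log2 fold change of -1.76 over the list, and 0 of 5 passed in rt-PA vs Model or in Model vs Sham. All 7 markers of infiltrating monocytes and macrophages were in the table, and their sum was 183, 217 and 203 CPM in Sham, 293, 282 and 387 in Model, 858, 472 and 487 in rt-PA, and 94.6, 142 and 127 in rt-PA+Acu, with Fn1 on top. Of these, 5 rose and 1 fell in Model vs Sham, and 6 fell in the acupuncture comparison. The marker that fell in Model vs Sham was Fn1, which averaged 144 CPM in Sham, where the list summed to 201 CPM by mean. In rt-PA+Acu vs Sham the sum was lower, but the median log2 fold change of the 6 markers tested was 1.18, with 0 passing as higher and 1 as lower. Both macrophage lists, like Cd163 and Hmox1, were lower in every rt-PA+Acu library than in every rt-PA library, and their part in these results was not tested.

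The 5 neutrophil markers, with S100a9 as the most abundant over the 12 libraries and Csf3r above it by mean outside rt-PA, summed to 7.26 to 11.8 CPM in Sham, 4.96 to 16.9 in Model, 81.5, 34.6 and 14.8 in rt-PA and 3.66 to 5.24 in rt-PA+Acu, and 4 of 5 fell in the acupuncture comparison. Astrocyte markers, 6 of 6 and with Gfap on top, summed to 3794 to 4487 CPM in Sham, 4087 to 5955 in Model, 4543 to 5334 in rt-PA and 5320 to 7043 in rt-PA+Acu. The higher sum in Model came with Gfap, which averaged 391 CPM in Sham and 3342 CPM in Model, while the other 5 markers of that list fell in Model vs Sham (median log2 fold change of the 6, -1.20), and 5 of 6 rose in the acupuncture comparison. Of the 6 neuron markers, 4 fell and 1 rose in Model vs Sham, and 4 rose in the acupuncture comparison. The part of these lists in the members' levels was not tested.

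The red blood cell transcripts that could be read from the table were rare. Of 10 red blood cell markers, 6 were in the table, while Hba-a1, Hba-a2, Hbb and Hbb-b1 were not analysed here. The 6 summed to 12.6, 4.20 and 2.71 CPM in Sham, 2.60, 1.61 and 2.73 in Model, 2.78, 2.44 and 4.65 in rt-PA, and 4.38, 4.36 and 1.34 in rt-PA+Acu. The highest sum was in Sham replicate 1, the lowest in rt-PA+Acu replicate 3, and the rt-PA libraries lay inside the range of the others only through Sham replicate 1, since rt-PA replicate 3 was the highest of the remaining 11. Hba-a3, an alpha globin gene and the most abundant of them over the 12 libraries, held 3 to 58 counts per library, and Hbb-bs had at most 1 count and 0 in 10 libraries. Of the 2 genes tested, Ahsp and Hba-a3, edgeR passed 0 in Model vs Sham, rt-PA vs Model, the acupuncture comparison and rt-PA+Acu vs Sham. Hba-a3 in rt-PA vs Model differed by 1.05 on the log2 scale (standard error 0.49, unadjusted p = 0.068, edgeR adjusted p = 0.534), and all rt-PA libraries (1.18 to 2.88 CPM) lay above all Model libraries (0.593 to 1.15 CPM), with Sham at 0.786 to 4.67 CPM. In rt-PA vs Sham 1 passed, Ahsp, the gene of a hemoglobin chaperone, which stood at 0.790 to 1.46 CPM in rt-PA and 1.57 to 3.30 CPM in Sham and fell by 1.14 on the log2 scale (standard error 0.42, edgeR adjusted p = 0.0485). At this depth no red blood cell marker passed in rt-PA vs Model or the acupuncture comparison, which does not show that their levels were the same, and RNA does not measure hemoglobin protein.

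**Figure D3:**
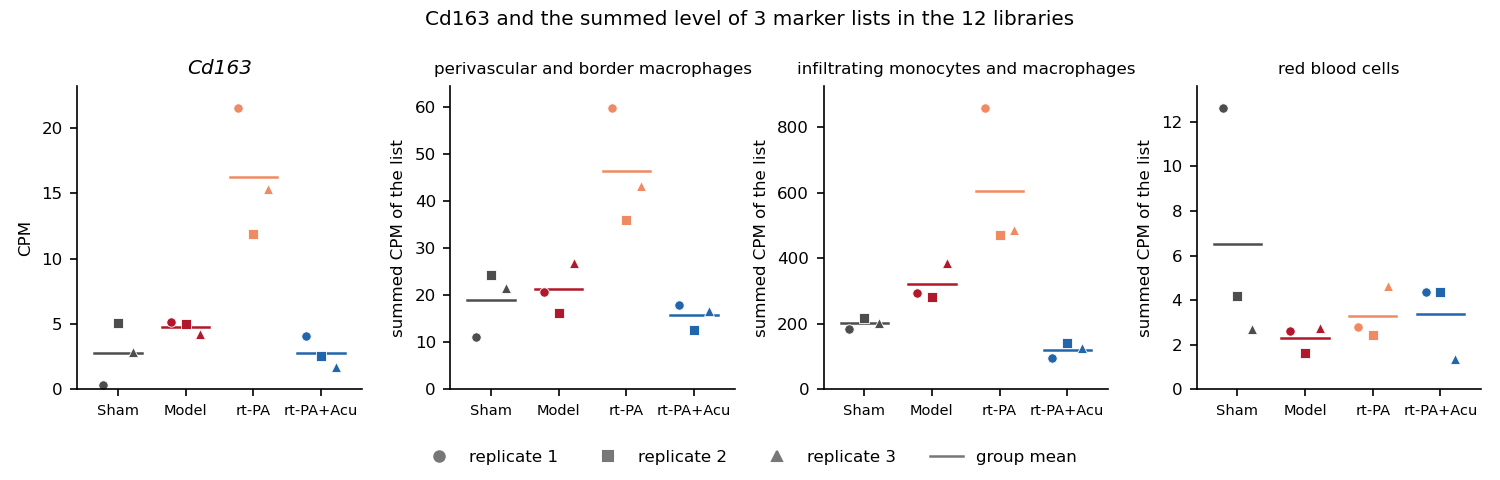
CPM of Cd163 and summed CPM of 3 marker lists in each of the 12 libraries, by group, with a symbol for each replicate and a bar for the group mean. The rt-PA libraries are the highest 3 for Cd163 (11.9 to 21.5 CPM) and for both macrophage lists, and for red blood cell markers (2.44 to 4.65 CPM) they lie below Sham replicate 1 (12.6 CPM).

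Ferritin light chain and heavy chain, the subunits of the iron storage shell, differed from each other in pattern. Ftl1, the light chain gene, stood at 102, 116 and 102 CPM in Sham, 339, 349 and 163 CPM in Model, 517, 531 and 472 CPM in rt-PA, and 248, 232 and 317 CPM in rt-PA+Acu. Sham was lowest and rt-PA highest without overlap, and Model and rt-PA+Acu lay between them, with Model replicate 3 close to Sham. It rose by a log2 of 1.41 in Model vs Sham (standard error 0.26, edgeR adjusted p = 0.00217), and by 1.69 without Model replicate 3. In rt-PA vs Model the difference was 0.84 (standard error 0.26), with an unadjusted p of 0.0131 and an edgeR adjusted p of 0.38, and 0.55 without Model replicate 3. Ftl1 fell by 0.93 on the log2 scale in the acupuncture comparison (standard error 0.15, edgeR adjusted p = 0.00432), in all 13 alternatives as well. It was also the 1 member that passed in rt-PA+Acu vs Sham, where it was higher by 1.31 (standard error 0.14, edgeR adjusted p = 0.00377).

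Fth1, the heavy chain gene, stood at 1407, 1756 and 1910 CPM in Sham, 1211, 1303 and 2092 CPM in Model, 1561, 1872 and 1203 CPM in rt-PA, and 1435, 1363 and 1231 CPM in rt-PA+Acu. All 4 groups overlapped, and the highest library was Model replicate 3. It passed in none of the 5 comparisons, with log2 fold changes from -0.33 (rt-PA+Acu vs Sham) to 0.01 (rt-PA vs Model). Without Model replicate 3 it was lower in Model than in Sham by -0.42 with an edgeR adjusted p of 0.0218 (0.0218 to 0.976 over the alternatives), and without Model replicate 1 the value was 0.01. Ferritin genes have many near-identical processed copies in rodent genomes, among which reads can be split, so the levels of Fth1 and Ftl1 are uncertain.

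Ncoa4, the gene of the receptor that carries ferritin to the lysosome for breakdown, was near Sham in Model replicate 3 alone among the clot libraries. It stood at 58.5, 61.1 and 60.9 CPM in Sham, 151, 151 and 66.3 CPM in Model, 137, 142 and 151 CPM in rt-PA, and 129, 130 and 145 CPM in rt-PA+Acu. The 8 clot libraries other than Model replicate 3 lay in a narrow band at more than double the Sham level, and Model replicate 3 lay next to Sham. Ncoa4 rose by 1.04 on the log2 scale in Model vs Sham (standard error 0.28, edgeR adjusted p = 0.013), by 1.34 without Model replicate 3 and by 0.87 without Model replicate 2 (no longer passing, adjusted p = 0.0503). In the acupuncture comparison it was -0.09 (standard error 0.10, edgeR adjusted p = 0.526), and against Sham the rt-PA+Acu libraries differed by 1.16 (standard error 0.10, edgeR adjusted p = 0.00188). Ltf, the lactoferrin gene, and Ftmt, the mitochondrial ferritin gene, had 0 counts in every library, which allows up to 3 counts each.

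**Figure D4:**
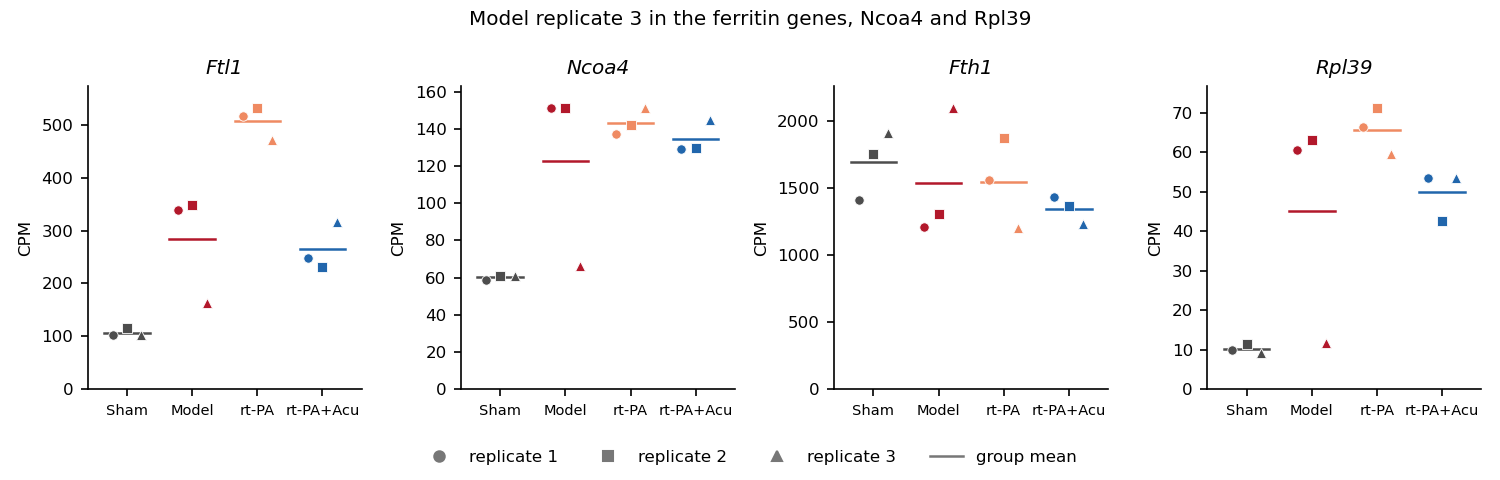
CPM of Ftl1, Ncoa4, Fth1 and Rpl39 in each of the 12 libraries, by group, with axes from 0, a symbol for each replicate and a bar for the group mean. Model replicate 3 (triangle) lies with or near the Sham libraries for Rpl39 (11.7 CPM), Ncoa4 (66.3 CPM) and Ftl1 (163 CPM) and is the highest library for Fth1 (2092 CPM).

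Tfrc, the gene of the receptor through which cells take up iron-laden transferrin, stood at 193, 228 and 251 CPM in Sham, 324, 359 and 249 CPM in Model, 250, 287 and 286 CPM in rt-PA, and 220, 228 and 186 CPM in rt-PA+Acu. Model replicates 1 and 2 were the highest, Model replicate 3 lay inside the Sham range, and the rt-PA+Acu libraries lay below all rt-PA libraries. It rose by a log2 of 0.48 in Model vs Sham (standard error 0.15, edgeR adjusted p = 0.0263), and by 0.62 without Model replicate 3. Leaving out Model replicate 1 or 2 or Sham replicate 1 or 2 ended that call, with adjusted p from 0.0634 to 0.0972. In the acupuncture comparison it fell by 0.38 on the log2 scale (standard error 0.12, edgeR adjusted p = 0.0439), and this call was lost in 10 of 13 alternatives, among them each of the 6 fits that left out 1 library, with adjusted p up to 0.133.

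Slc11a2 encodes the transporter that moves iron out of the endosome. Its libraries stood between 60.7 and 82.2 CPM in all groups, and it passed in none of the 5 comparisons. The largest of its log2 fold changes was 0.26, in Model vs Sham (standard error 0.10, edgeR adjusted p = 0.0619), where all Model libraries (77.1 to 79.4 CPM) lay above all Sham libraries (60.7 to 74.8 CPM). Slc11a2 passed there without Sham replicate 3 (0.36, adjusted p = 0.0207, with 0.0207 to 0.205 over the alternatives) and with scaling by library size only (0.33, adjusted p = 0.0209). Steap3, the gene of the endosomal ferric reductase, stood at 8.62, 9.33 and 7.33 CPM in Sham, 6.11, 5.84 and 7.85 CPM in Model, 7.63, 8.12 and 6.93 CPM in rt-PA, and 12.8, 9.86 and 10.6 CPM in rt-PA+Acu. Those last libraries were the 3 highest of the 12, and the other groups overlapped. Its log2 fold change in the acupuncture comparison was 0.55 (standard error 0.18, edgeR adjusted p = 0.0505), on the opposite side of 0 from the 5 members that fell, and over the alternatives its adjusted p lay between 0.0281 and 0.166.

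Ceruloplasmin, the gene Cp, is a copper oxidase of plasma and astrocytes that readies exported iron for transferrin. It stood at 12.5, 19.3 and 23.7 CPM in Sham, 18.7, 51.9 and 36.6 CPM in Model, 126, 48.5 and 121 CPM in rt-PA, and 33.5, 26.0 and 58.2 CPM in rt-PA+Acu. The rt-PA libraries lay above all Sham libraries, rt-PA replicate 2 lay inside the Model range, and rt-PA+Acu replicate 3 lay above rt-PA replicate 2. Between Sham and Model, Cp differed by 0.95 on the log2 scale (standard error 0.36, edgeR adjusted p = 0.052), with adjusted p from 0.00552 (without Model replicate 1) to 0.2 over the alternatives. In rt-PA vs Model it was 1.47 (standard error 0.44), with an unadjusted p of 0.011 and an edgeR adjusted p of 0.374. With acupuncture before rt-PA, Cp fell by 1.32 on the log2 scale (standard error 0.41, edgeR adjusted p = 0.0426), and leaving out rt-PA+Acu replicate 1 or 2 or rt-PA replicate 1 or 3 ended that call, with adjusted p from 0.119 to 0.131. Against Sham it rose by 2.39 in rt-PA (standard error 0.38, edgeR adjusted p = 0.00125), while rt-PA+Acu differed by 1.09 (standard error 0.33, edgeR adjusted p = 0.0996).

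The relatives of ceruloplasmin split in direction. Heph, the gene of hephaestin, an iron oxidase that works beside ferroportin, stood at 13.5, 12.3 and 16.7 CPM in Sham, 1.22, 2.12 and 4.79 CPM in Model, 5.62, 4.10 and 4.57 CPM in rt-PA, and 8.85, 6.20 and 5.07 CPM in rt-PA+Acu. Hephl1, a hephaestin-like gene, stood at 0.403, 0.459 and 0.437 CPM in Sham, 17.9, 14.1 and 9.33 CPM in Model, 6.66, 12.2 and 9.88 CPM in rt-PA, and 0.169, 0.611 and 0.821 CPM in rt-PA+Acu. Heph was thus highest in Sham with no overlap, and Hephl1 was near the limit of detection (2 to 11 counts) in Sham and rt-PA+Acu and higher in all Model and rt-PA libraries. Heph fell by 2.38 on the log2 scale in Model vs Sham (standard error 0.42, edgeR adjusted p = 0.00179), and by 3.08 without Model replicate 3. Hephl1 rose by 4.97 in Model vs Sham (standard error 0.35, edgeR adjusted p = 2.84e-05). It fell by 4.12 in the acupuncture comparison on the log2 scale (standard error 0.48, edgeR adjusted p = 0.00172), where Heph did not pass (0.49, adjusted p = 0.199).

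The other genes of the pathway were taken from 7 lists with 52 genes, of which 51 had a row. In Model vs Sham, 27 of 47 tested passed, 15 higher and 12 lower, 8 of them as DEGs, which at 57.4% is near the 54% of all genes, with a median of 0.02 for their log2 fold changes. For rt-PA vs Model, 0 of 47 passed edgeR's test, 0 passed with DESeq2, and 4 did in edgeR at an unadjusted p under 0.05. In the acupuncture comparison, 15 of 47 passed, 5 higher and 10 lower, 5 as DEGs, and the share of 31.9% is near the 34.8% of all genes. In that comparison the count was 8 without rt-PA+Acu replicate 2, without rt-PA replicate 1 and without rt-PA replicate 3. In rt-PA vs Sham, 23 of 47 passed, 12 higher and 11 lower, 48.9% beside 54.7% of all genes. In rt-PA+Acu vs Sham it was 5 of 45, 2 higher and 3 lower, 11.1% beside 5.1% of all genes, with 2 when rt-PA+Acu replicate 2 or any Sham replicate was left out.

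Heme synthesis, with 8 of 9 genes tested, had 1 gene higher and 2 lower in Model vs Sham and 1 higher in the acupuncture comparison, with median log2 fold changes of -0.20 and 0.19. Of the 5 genes of heme breakdown and scavenging, 1 rose and 1 fell in Model vs Sham, and 2 rose and 1 fell in the acupuncture comparison. Heme transport and sensing had 4 of 7 genes higher and 3 lower in Model vs Sham, so all 7 passed where 54% of all genes did, and 2 lower in the acupuncture comparison. Iron uptake and release had 3 of 11 tested higher and 1 lower in Model vs Sham, and 3 lower in the acupuncture comparison. All 3 tested genes of iron storage and chaperones rose in Model vs Sham, and 1 fell in the acupuncture comparison. The iron sensing and hepcidin list had 2 of 6 tested higher and 1 lower in Model vs Sham, and 1 higher and 1 lower in the acupuncture comparison, and Hamp, the hepcidin gene, had 1 count in 1 of the 12 libraries. Of the 7 genes of mitochondrial iron and iron-sulfur assembly, 1 rose and 4 fell in Model vs Sham, and 1 rose and 2 fell in the acupuncture comparison.

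Bach1, the heme-binding repressor of Hmox1, and Nfe2l2, the gene of its activator NRF2, moved in the same direction as Hmox1. Bach1 stood at 11.6, 12.2 and 10.8 CPM in Sham, 32.5, 28.4 and 27.9 CPM in Model, 38.6, 29.5 and 27.7 CPM in rt-PA, and 11.8, 9.95 and 14.2 CPM in rt-PA+Acu. Nfe2l2 stood at 29.1, 35.5 and 28.4 CPM in Sham, 38.2, 42.5 and 45.3 CPM in Model, 71.5, 57.6 and 54.6 CPM in rt-PA, and 32.7, 27.8 and 32.3 CPM in rt-PA+Acu. Both were lower in every rt-PA+Acu library than in every Model or rt-PA library and overlapped Sham there, and Nfe2l2 was higher in every rt-PA library than in every Model library. Bach1 rose by 1.37 in Model vs Sham (standard error 0.13, edgeR adjusted p = 0.000106) and fell by 1.41 on the log2 scale in the acupuncture comparison (standard error 0.20, edgeR adjusted p = 0.00301). Nfe2l2 rose by 0.44 in Model vs Sham (standard error 0.12, edgeR adjusted p = 0.0154), a call lost without Sham replicate 1 or 3 (adjusted p = 0.0657 and 0.0674). Between Model and rt-PA, Nfe2l2 differed by 0.55 on the log2 scale (standard error 0.13), with an unadjusted p of 0.00372 and an edgeR adjusted p of 0.325. It fell by 0.98 on the log2 scale in the acupuncture comparison (standard error 0.14, edgeR adjusted p = 0.00337).

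Slc39a14, the gene of a membrane importer of iron that is not bound to transferrin, stood at 29.4, 29.7 and 33.3 CPM in Sham, 96.9, 88.6 and 95.1 CPM in Model, 109, 103 and 126 CPM in rt-PA, and 35.7, 33.5 and 42.4 CPM in rt-PA+Acu. No 2 groups overlapped, and rt-PA+Acu lay just above Sham. It rose by 1.61 in Model vs Sham (standard error 0.10, edgeR adjusted p = 1.45e-05) and fell by 1.59 on the log2 scale in the acupuncture comparison (standard error 0.14, edgeR adjusted p = 0.00104). Slc25a37, the mitochondrial iron importer mitoferrin, ranged from 3.14 to 4.54 CPM in Sham, 5.76 to 8.59 in Model, 5.61 to 7.62 in rt-PA and 2.09 to 2.61 in rt-PA+Acu. It rose by 0.80 in Model vs Sham (edgeR adjusted p = 0.0322), not passing without Model replicate 3 (0.58, adjusted p = 0.0885) or without Sham replicate 1 or 2. Slc25a37 fell by 1.49 on the log2 scale in the acupuncture comparison (standard error 0.25, edgeR adjusted p = 0.00515). Steap1, a gene of the STEAP family with 0 to 37 counts per library, fell by 1.97 in the acupuncture comparison on the log2 scale (standard error 0.63, edgeR adjusted p = 0.045). That call was lost in 8 of 12 alternatives and in 5 of the 6 fits that left out 1 library, the exception being rt-PA+Acu replicate 3 (-3.24).

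Of the other genes named, Ncoa4, Lcn2, Abcg2 and Heph passed in rt-PA+Acu vs Sham. Lcn2, the gene of lipocalin, which binds iron-carrying siderophores, stood at 2.42, 1.22 and 0.96 CPM in Sham, 10.5, 14.6 and 25.5 CPM in Model, 37.0, 17.7 and 35.7 CPM in rt-PA, and 6.24, 18.6 and 45.7 CPM in rt-PA+Acu. That last group spread beyond the range of Model and rt-PA on both sides and lay above Sham in every library. Lcn2 rose by 3.45 in Model vs Sham (standard error 0.44, edgeR adjusted p = 0.000361) and differed by -0.35 in the acupuncture comparison (standard error 0.62, edgeR adjusted p = 0.687). In rt-PA+Acu vs Sham it was higher by 3.93 (standard error 0.74, edgeR adjusted p = 0.0268), by 2.99 without rt-PA+Acu replicate 3, and did not pass without rt-PA+Acu replicate 2 or any 1 Sham replicate (adjusted p from 0.0583 to 0.138).

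Abcg2, the gene of an efflux pump for heme and drugs at the blood-brain barrier, stood at 30.2, 51.7 and 42.1 CPM in Sham, 2.14, 4.74 and 6.11 CPM in Model, 4.65, 6.90 and 6.64 CPM in rt-PA, and 9.27, 9.34 and 3.81 CPM in rt-PA+Acu. All 9 clot libraries lay far below Sham. It fell by 3.25 on the log2 scale in Model vs Sham (standard error 0.35, edgeR adjusted p = 0.000164), did not pass in the acupuncture comparison (0.30, edgeR adjusted p = 0.553), and was lower in rt-PA+Acu than in Sham by -2.48 (standard error 0.33, edgeR adjusted p = 0.00856). Heph differed by -1.08 in rt-PA+Acu vs Sham (standard error 0.24, edgeR adjusted p = 0.0405), a call lost without rt-PA+Acu replicate 2 or 3 or any 1 Sham replicate, with adjusted p up to 0.139. Flvcr2, a transporter gene of the heme exporter family, stood at 4.71 to 8.18 CPM in Sham, 1.60 to 2.89 CPM in Model, 2.80 to 3.68 CPM in rt-PA and 3.36 to 4.71 CPM in rt-PA+Acu. It fell by 1.64 on the log2 scale in Model vs Sham (standard error 0.34, edgeR adjusted p = 0.00381), and rt-PA+Acu differed from Sham by -0.73 (edgeR adjusted p = 0.162).

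Tf, the transferrin gene, which oligodendrocytes express in the brain, ranged from 256 to 1645 CPM without a difference between groups that passed. Its highest library, rt-PA replicate 2, was also the highest of the Model and rt-PA libraries for the 6 oligodendrocyte markers, which were all in the table, were led by Mbp and summed to 11447 CPM there, to 1672 to 8503 CPM in the other 5 Model and rt-PA libraries, to 11966 to 17905 CPM in Sham and to 3212 to 21103 CPM in rt-PA+Acu. The part of this list in the level of Tf was not tested.

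**Figure D5:**
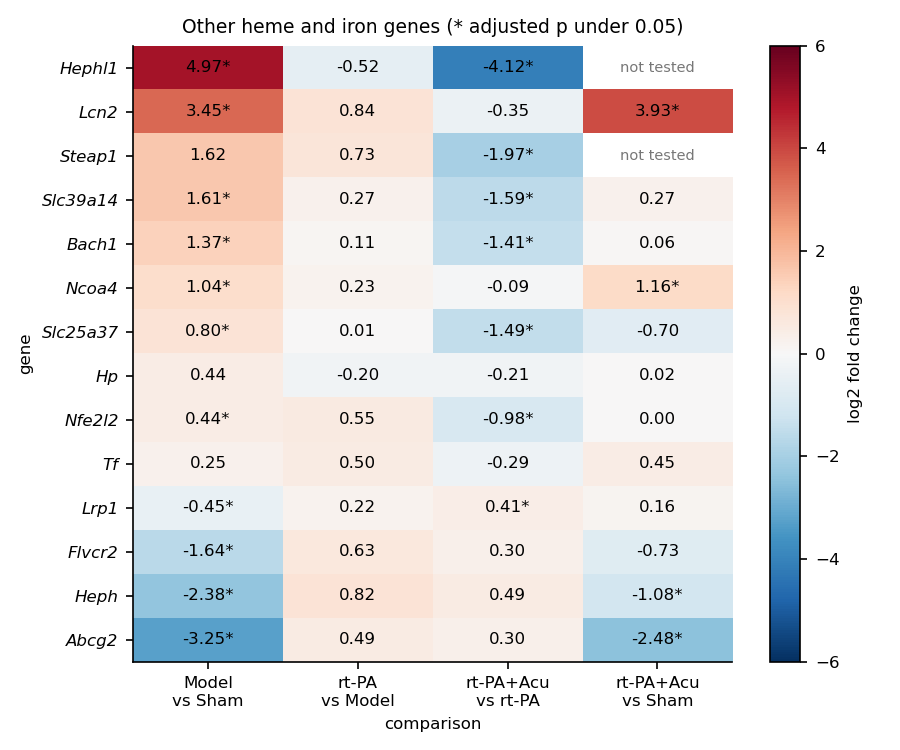
Log2 fold change of the 14 other heme and iron genes named in the text in 4 comparisons, as colour and number, with an asterisk for an edgeR adjusted p under 0.05. Hephl1, Slc39a14, Bach1, Slc25a37 and Nfe2l2 pass as higher in Model vs Sham and lower in the acupuncture comparison, Lrp1 the other way round, and Abcg2, Heph, Lcn2 and Ncoa4 pass in rt-PA+Acu vs Sham.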

How the data were processed

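The authors deposited raw whole-number counts per gene symbol for 12 libraries, from stranded, poly(A)-selected RNA. Per the submitters' processing notes and the study's methods, reads were aligned to mRatBN7.2 with STAR 2.7.10a and counted with Salmon 1.9.0. The notes also list featureCounts 2.0.1, with no role. Adapters carried molecular identifiers, but their use in counting is not stated, so floors given in counts hold only the error of counting. No value column lacked a sample. Libraries were grouped by their labels, and no batch is named.

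For every comparison, the 6 libraries concerned were fitted alone in R 4.3.3 with edgeR 4.0.16 (TMM factors 0.9476 to 1.077, filterByExpr, quasi-likelihood test, Benjamini-Hochberg adjustment over all genes tested). Of 17268 genes, 15895 had a count. Scripts were tested on simulated data. Plots were made in Python 3.11.15 with matplotlib 3.10.9. Likeness was the Pearson correlation of log2 CPM with a prior count of 2. Promoter sequences came from RefSeq (GRCr8).

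Genes named were all members, every gene of the 7 pathway lists that was a DEG in Model vs Sham or rt-PA+Acu vs rt-PA, Hp, Tf, Lrp1, Lcn2, Bach1 and Nfe2l2, and the 3 genes most like Hmox1 and Cd163. Ltf, Ftmt and Hamp were added as pathway genes with 0 or 1 counts, Rpl39 for the split of its values, and marker genes beside their lists. Members and lists were chosen with earlier results of these data known. Marker lists covered red blood cells, perivascular and infiltrating macrophages, neutrophils, microglia, astrocytes, oligodendrocytes, neurons, endothelial cells, choroid plexus, meninges and hepatocytes; values of the microglia list are not given. Alternatives to this test were DESeq2 1.42.0 as the tool, RLE size factors, scaling by library size only, leaving out the count filter (genes with at least 1 count kept), a stricter filter of 10 counts per library, a common fit to the 12 libraries, a block for replicate number, and omission of single libraries.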

Additional observations from a re-analysis of the deposited data

How the results depend on the processing

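Of 965 log2 fold changes recomputed under an alternative, 871 kept their direction and their side of the threshold, 59 no longer passed, 18 came to pass and 17 turned sign. They cover the members in every comparison that tested them, but the other named genes only where these had passed in the main fit. Only members could therefore come to pass. The causes of these changes were not tested. With DESeq2, with library size alone and without the filter, 5 members passed in Model vs Sham, beside 48.9%, 55.2% and 45.2% of all genes. With DESeq2, rt-PA vs Model had 1 member passing, as a DEG, beside 1.14% of all genes passing and 0.501% as DEGs, and rt-PA+Acu vs Sham had 2, both DEGs, beside 10.4% and 3.18%. DESeq2 passed 6 members in the acupuncture comparison, beside 35.9% of all genes, the added one being Steap3, higher by 0.56 (adjusted p = 0.0453, with 0.0281 to 0.166 over the alternatives). Library size alone moved the median log2 fold change of all genes in rt-PA vs Sham by 0.15, and the share of higher genes among those that passed from 50.1% to 62.2%. With 1 library left out, members passing in the acupuncture comparison ran from 3 to 5, member DEGs from 2 to 5, and other genes passing from 8 to 16, and other genes in rt-PA+Acu vs Sham from 2 to 5.

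Signs turned only where no test had passed. Over the alternatives, Fth1 ran from -0.42 to 0.01 in Model vs Sham, -0.15 to 0.29 for rt-PA vs Model and -0.30 to 0.01 for rt-PA vs Sham, and Hpx from -0.06 to 1.72 in rt-PA vs Model. Comparing rt-PA+Acu with Sham, Hmox1 ran from -0.33 to 1.13, Slc11a2 from -0.04 to 0.12, Tfrc from -0.18 to 0.00 and Cd163 from -0.53 to 0.79 (0.00 with DESeq2, 0.02 with library size alone).

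The sources do not say that replicate numbers pair rats. With the number as a block, other genes passing in rt-PA+Acu vs Sham went from 5 to 2, Lcn2 (edgeR adjusted p = 0.0664) and Heph (0.0883) no longer passed there, and Cd163 was 0.24. The block also ended, in the acupuncture comparison, the calls of Tfrc (adjusted p = 0.0873), Lrp1 (0.0899) and Steap1 (0.0534). With it, Cp passed in Model vs Sham (0.00769) and Tfrc in rt-PA vs Sham (0.0351).

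Depth limits the rare genes: Hpx, Steap1 and Hephl1 had libraries with at most 3 counts, and a count of 0 allows up to 3 counts, 0.208 to 0.262 CPM. With 3 rats in each group, a difference that missed the threshold is not shown to be absent.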

Other observations

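Marker lists of other cell types also moved between the groups. The 6 endothelial markers in the table, of 7 listed, summed to 160 to 204 CPM in Sham, 221 to 433 CPM in Model, 296 to 427 CPM in rt-PA and 102 to 111 CPM in rt-PA+Acu. In the acupuncture comparison all 6 fell in edgeR's test, with a median log2 fold change of -1.54, and 4 of 6 fell in rt-PA+Acu vs Sham, so the rt-PA+Acu libraries lay below Sham as well. Kdr was the most abundant over the 12 libraries but not in Sham, where it averaged 16.4 CPM beside 49.2 CPM for Tek, and it averaged 117 CPM in Model. In Model vs Sham, 1 of the 6 passed, Kdr, higher by 2.84 on the log2 scale (edgeR adjusted p = 2.6e-05), and Tek (-0.52) and Tie1 (-0.12) lay below 0.

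The 5 hepatocyte markers, led by Alb, summed to 16.4 to 22.0 CPM in Sham, 0.534 to 3.96 CPM in Model, 1.70 to 2.43 CPM in rt-PA and 4.25 to 9.60 CPM in rt-PA+Acu, while Fgb had at most 3 counts in any library. Alb, the gene of the plasma protein albumin, stood at 14.5 to 19.7 CPM in Sham and 0.153 to 2.23 CPM in Model. Markers of meninges and fibroblasts, 6 of 6 and led by Pdgfra, summed to 200 to 333 CPM in Sham, 56.7 to 129 CPM in Model, 127 to 379 CPM in rt-PA and 146 to 285 CPM in rt-PA+Acu. Most of the Sham sum was Pdgfra, which averaged 170 CPM in Sham and 89.5 CPM in rt-PA, while Dcn, Lum, Col1a1 and Col1a2 had their highest group mean in rt-PA, with Dcn at 35.2 CPM there and at 9.95, 6.93 and 9.16 CPM in the Sham, Model and rt-PA+Acu groups. The median log2 fold change of the list was 2.07 for rt-PA vs Model, where 0 of the 6 markers passed. Against Sham the rt-PA group had a median of 1.13, with 2 markers higher and 1 lower. The 7 choroid plexus markers, with Kl as the most abundant over the 12 libraries, summed to 3.49 to 5.07 CPM in Sham, 11.8 to 20.2 CPM in Model, at most 9 CPM in rt-PA and 2.79 to 17.5 CPM in rt-PA+Acu, where replicate 3 held 15.7 CPM of Kcne2. The part of these lists in the levels of the heme and iron genes was not tested.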
